A study of Mus musculus with 6 samples.

Results

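The genes described here are 8 transcripts that mouse liver makes in quantity before birth and 2 repressors that come on as the liver matures. The fetal transcripts are Afp, H19, Igf2, Gpc3, Cd24a, Lpl, Scd2 and Sox4, and the repressors are Zbtb20 and Zhx2. They were picked by symbol, 10 of the 50600 gene rows in the deposited tables, and all 10 had enough reads to be tested. RNA sequencing of whole liver gave 3 libraries labelled Dicerloxp/loxp;Alb-cre (Dicer LKO) and 3 controls labelled Dicerloxp/loxp, which the series' design text calls wild-type. All 6 were C57BL/6 livers taken 1 month after birth, and both groups carry the loxP-flanked Dicer alleles. Cre under the albumin promoter acts in hepatocytes and in the hepatoblasts they come from, so blood, endothelial, stellate and Kupffer cells in the same RNA keep Dicer. Nothing in the labels shows whether each library is a separate animal, so every p-value here is set by how much these 6 samples vary, and some of that may be technical.

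Dicer is the RNase that cuts hairpin precursors into mature microRNAs (miRNAs), which pair through bases 2 to 8, the seed, with messenger RNAs and lower their output. Afp, H19 and Igf2 are abundant in fetal hepatoblasts and are shut down in the first weeks after birth. Zbtb20, a BTB zinc finger protein, binds the Afp promoter and is needed for this silencing, and Zhx2, a zinc finger and homeobox protein, is the gene behind the inherited persistence of Afp in BALB/cJ mice. In human hepatoma cells a chain from CUX1 over miR-214 to ZBTB20 has been described as setting AFP levels. The let-7 miRNAs are known to hold down several oncofetal messages after birth.

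The miRNAs tied to these genes are shown first, because some of the genes are hosts of miRNA hairpins, which need Dicer to be cut, and because seed matches are set beside the results. H19 is the host of miR-675, Igf2 of miR-483 and Zbtb20 of miR-568, all on the same strand as the host. Also on the same strand, miR-5114 lies inside Scd2, and miR-6384 and miR-717 lie inside Gpc3, but their sequences are not printed. The sequences are RefSeq's (GRCm38.p6), 5′ to 3′, with the seed in capitals.
miR-675-5p: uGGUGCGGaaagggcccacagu
miR-675-3p: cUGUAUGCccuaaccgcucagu
miR-483-5p: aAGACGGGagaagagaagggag
miR-483-3p: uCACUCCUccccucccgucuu
miR-568: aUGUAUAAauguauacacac
let-7a-5p: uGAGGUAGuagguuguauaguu
miR-214-3p: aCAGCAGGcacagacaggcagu
No 2 of these 7 share a seed. The rows of Mir675, Mir483 and Mir568 were listed at 0 counts in all 6 libraries, so the tables give no measure of the mature forms.

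Matches to the let-7 seed (letters CTACCTC) and to the miR-214-3p seed (letters CCTGCTG) were searched on the sense strand of the longest annotated 3′ untranslated region (3′UTR) of each gene, and a match is a string of letters, not a tested site. Of the 9 protein-coding genes described here, Scd2 held the let-7 letters, once, against 10.1% of 21173 mouse genes with a 3′UTR. Among the 22 other fetal or oncofetal genes, 3 held them once: the imprinted zinc finger gene Peg3, and Igf2bp2 and Igf2bp3, RNA-binding proteins of Igf2 messages. Hmga2, Igf2bp1 and Lin28b held them 4 times each, but had at most 3 counts in a library. The single matches are printed with their flanks, the match in capitals, and the values of these genes are given with the other fetal genes.
Igf2bp3 site at UTR position 548: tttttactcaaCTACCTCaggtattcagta
Igf2bp2 site at UTR position 1313: acaaataaaagCTACCTCaggtgtttttta
Peg3 site at UTR position 616: tgttctgtcccCTACCTCttagatagtcct
Scd2 site at UTR position 3288: atattcctgacCTACCTCcacgggtaggtg
Zbtb20 alone of the 9 held the miR-214-3p letters, which 21.6% of the 21173 genes hold, and it held them 7 times. Its 3′UTR is 23858 bases long, and whether 7 matches exceed what that length would give was not tested. The 7 are printed because Zbtb20 was 1 of the 2 genes whose change passed the test. That change was to a lower level, and a part of miR-214-3p in it was not tested.
Zbtb20 site at UTR position 180: actgttttttgCCTGCTGgtacattacatt
Zbtb20 site at UTR position 533: gagctgtaaggCCTGCTGtctttaaataca
Zbtb20 site at UTR position 661: agaggaatggcCCTGCTGtttccacctacc
Zbtb20 site at UTR position 1475: ggcccgcccacCCTGCTGtaatttcaactg
Zbtb20 site at UTR position 2682: tattaccccccCCTGCTGttttgctgttgt
Zbtb20 site at UTR position 3356: acaggctcagtCCTGCTGttttaccccaaa
Zbtb20 site at UTR position 8623: acccatcaccaCCTGCTGcagttaatctgg

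The Afp promoter is printed because it is where Zbtb20 and hepatocyte factors meet. RefSeq's window on GRCm38.p6, chr5:90490464-90490763 on the plus strand, is given 5′ to 3′ with 2 motifs in capitals.
Afp promoter: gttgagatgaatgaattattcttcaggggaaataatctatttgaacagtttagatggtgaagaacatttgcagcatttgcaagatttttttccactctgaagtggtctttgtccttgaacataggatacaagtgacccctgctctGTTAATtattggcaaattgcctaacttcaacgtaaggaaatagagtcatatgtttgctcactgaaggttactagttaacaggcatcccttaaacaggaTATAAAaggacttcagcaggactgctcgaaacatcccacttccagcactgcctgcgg
The first is an HNF1 half-site (letters GTTAAT, both strands searched for the share), which starts 128 bases before the GENCODE start of Afp, and the second a TATA box (letters TATAAA), which starts 30 bases before it. GTTAAT stood in 7.1% of 32851 mouse promoter windows, TATAAA in 13.6% and both in 1.53%. The table held 8 promoter windows of 5 of the 10 genes, and of these only the Afp window held GTTAAT.

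Library facts that touch these genes come before the results. The libraries held 14141973 to 25049749 counts, control 3 being the shallowest. Dicer1, the targeted gene, had 28.9, 31.2 and 24.4 CPM (counts scaled to library size) in Dicer LKO livers, against 42.6, 69.3 and 56.1 CPM in control livers. No Dicer LKO library overlapped a control, yet the log2 fold change of -0.99 ± 0.20 (SE) had an adjusted p of 0.0622 in edgeR's quasi-likelihood test, above the threshold of 0.05. The counts cover the whole gene and all cell types of the liver, so they do not measure the deleted part alone. Control 3 stood apart: 7 skeletal muscle markers summed to 0.459, 0.191 and 0.637 CPM in Dicer LKO livers, against 0.721, 0.768 and 1957 CPM in control livers. The Dicer LKO libraries had 5, 6 and 3 of these 7 markers at 0, and the controls 3, 1 and 0 of them. Acta1, skeletal muscle actin, made up 422 CPM of that sum. Among 14 heart muscle markers, the sums were 1.61, 0.762 and 12.8 CPM in Dicer LKO livers and 14.6, 15.3 and 55.4 CPM in control livers, with 10, 10 and 2 of the 14 at 0 in the Dicer LKO libraries. Results that turn on control 3 are given with and without it. The 12 hepatocyte markers were detected in all 6 libraries and summed to 123300, 153200 and 124700 CPM in Dicer LKO livers, against 109800, 85270 and 61980 CPM in control livers. Albumin and transferrin (Trf) made up most of those sums, and of the 12 markers 6 had a positive and 6 a negative log2 fold change, with a median of 0.00. None was called by edgeR, 2 had an unadjusted p under 0.05, and DESeq2 called Trf and Fgb.

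A gene was called when its Benjamini-Hochberg adjusted p over 14314 tested genes was under 0.05 in that test, which was run on the deposited expected counts, rounded, of 3 Dicer LKO and 3 control libraries. Of the 10 genes, 1 was called higher in Dicer LKO livers, Cd24a, against 0.741% of all tested genes, and 1 was called lower, Zbtb20, against 0.552%. An unadjusted p under 0.05 was reached by 7 of the 10, where 21.0% of all tested genes reached it. In 5 of the 10 (Igf2, Cd24a, Scd2, Zbtb20 and Zhx2) the lowest library of one group lay above the highest of the other, against 28.0% of all tested genes. The log2 fold change was positive for 7 of the 8 fetal transcripts and negative for both repressors, with a median of 1.54 over the 10 beside -0.01 over all tested genes. These genes were brought together knowing how some of them behave in these livers, so the counts are a description of the set. Afp, Igf2 and Gpc3 had 16 or fewer counts in each control, and H19 had 6 and 3 in 2 of them. Their place among the tested genes leaned on the Dicer LKO libraries, so the median is no support for a difference.

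**Figure D1:**
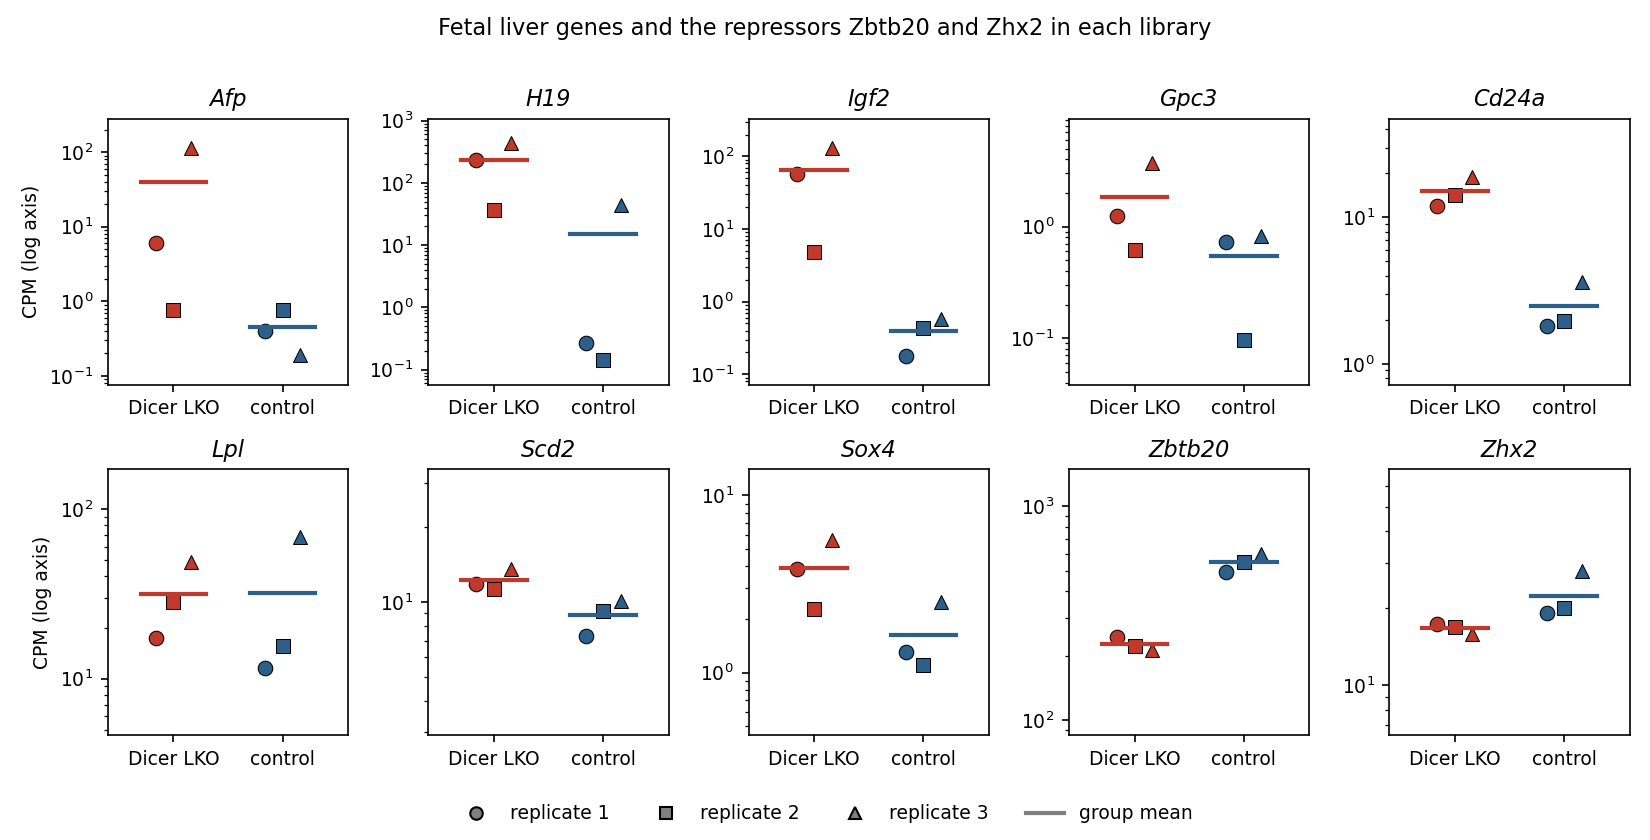
CPM on a log axis of each of the 10 genes in 3 Dicer LKO livers (left, red) and 3 control livers (right, blue); marker shapes give the replicate and bars the group mean. Afp, H19 and Igf2 spread widely within the Dicer LKO group and are highest in Dicer LKO 3, while Zbtb20 is tight in both groups with no overlap.

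All 8 fetal transcripts had their highest Dicer LKO value in library 3, and 6 of them (Afp, H19, Igf2, Gpc3, Scd2 and Sox4) had their lowest in library 2, while Cd24a and Lpl had it in library 1. In CPM both repressors had their lowest value in the same library 3. On the per-length TPM scale their lowest value was in library 2 instead. There Zbtb20 had 15.4, 12.9 and 13.1 TPM and Zhx2 2.80, 2.55 and 2.67 TPM in Dicer LKO 1, 2 and 3. The place of the repressors' lowest value thus depended on the scale. Across the Dicer LKO libraries the repressors spread less than the fetal genes did, Zbtb20 between 212 and 243 CPM and Zhx2 between 15.9 and 17.3 CPM.

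Afp encodes alpha-fetoprotein, the main plasma protein of the fetus and a member of the albumin family (chr5:90490737-90508907, plus strand, 5 transcripts). It had 6.05, 0.762 and 112 CPM in Dicer LKO livers, against 0.406, 0.768 and 0.191 CPM in control livers. The value in Dicer LKO 3 rested on 2822 counts, that in Dicer LKO 1 on 132 and that in Dicer LKO 2 on 16, the same number of counts as in control 2. So Afp was high in 1 Dicer LKO liver, moderate in another and within the control range in the remaining one. Afp had a log2 fold change of 6.38 ± 2.14 (SE, n = 3 each) and did not pass edgeR's test (adjusted p = 0.184). Without Dicer LKO 3 the value was 2.86 ± 0.93 (SE; adjusted p = 0.2504). DESeq2, which called 6.77% of its 16222 tested genes in either direction, called Afp with an adjusted p of 0.00415, in a range of 0.00415 to 0.476 over 13 alternatives. Scaled like CPM, but to the counts of albumin, the adult relative, in place of the library total, Afp stood at 125, 16.8 and 2202 in Dicer LKO livers, against 7.79, 31.6 and 7.26 in control livers, so 1 Dicer LKO library again lay within the controls. The other albumin family genes were called by neither tool, and none had an unadjusted p under 0.05. Albumin (Alb) itself had a log2 fold change of 0.50 ± 0.36 (SE; adjusted p = 0.476), Gc, the vitamin D-binding protein, one of 0.47 ± 0.28 (SE; adjusted p = 0.389), and all 4 members were positive.

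H19 and Igf2 are neighbours in an imprinted cluster on chromosome 7, with 72622 bases between their annotated spans. H19 is a long noncoding RNA made from the maternal copy, and Igf2 encodes insulin-like growth factor 2, a fetal growth factor made from the paternal copy. The 2 share an enhancer set and a CTCF-bound control region.

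H19 (chr7:142575529-142578143, minus strand) had 234, 37.2 and 430 CPM in Dicer LKO livers, against 0.270, 0.144 and 44.7 CPM in control livers. Control 3, the library with skeletal muscle transcripts, was above Dicer LKO 2, so the groups overlapped through that library, while the other controls rested on 6 and 3 counts against 781 or more in each Dicer LKO library. Skeletal muscle is known to keep H19 on after birth, and its part in the value of control 3 was not tested. With all libraries H19 had a log2 fold change of 3.98 ± 2.11 (SE; adjusted p = 0.350 in edgeR's test), and without control 3 one of 10.11 ± 1.65 (SE; adjusted p = 0.119). No alternative called it, with adjusted p-values of 0.111 to 0.577 over 13.

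Igf2 (chr7:142650766-142666816, minus strand) had 56.7, 4.86 and 132 CPM in Dicer LKO livers, against 0.180, 0.432 and 0.574 CPM in control livers. All 3 Dicer LKO libraries were above all controls, control 3 included, and the lowest Dicer LKO value rested on 102 counts against at most 9 in a control. The log2 fold change of 7.39 ± 1.51 (SE, n = 3 each) was the largest of the 10 genes and had an adjusted p of 0.0855 in edgeR's test. DESeq2 called it, with an adjusted p of 2.75e-07, and edgeR called it without Dicer LKO 2, with 0.0147, and over the 13 alternatives the adjusted p reached 0.224.

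On the per-length TPM scale, which allows 2 genes to be compared, Igf2 stood at 0.240, 0.177 and 0.312 of H19 in Dicer LKO livers. In control livers the ratio was 0.333, 1 and 0.0301, and in controls 1 and 2 both genes were near the detection limit. H19 thus exceeded Igf2 in each Dicer LKO library, by a ratio that varied less than either gene's level did.

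Of 11 genes listed as partners of the pair (insulin and IGF receptors, Igf1, mRNA-binding proteins, Ctcf and genes in the cluster), 5 were tested and none was called by edgeR or DESeq2; 1 had an unadjusted p under 0.05, with a median log2 fold change of -0.09. Igf1, the postnatal growth factor of the liver, had 529, 598 and 390 CPM in Dicer LKO livers, against 763, 681 and 607 CPM in control livers (log2 fold change -0.44 ± 0.22, SE; adjusted p = 0.307). Insr, the insulin receptor, had a log2 fold change of -0.42 ± 0.16 (SE; adjusted p = 0.194).

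Gpc3 encodes glypican 3, a cell-surface heparan sulfate proteoglycan that restrains fetal growth and is a marker of hepatocellular carcinoma (chrX:52272426-52613950, minus strand). It had 1.24, 0.619 and 3.70 CPM in Dicer LKO livers, against 0.721, 0.0961 and 0.829 CPM in control livers. Dicer LKO 3 was the highest library and the other 2 lay among or near the controls. Gpc3 had a log2 fold change of 1.79 ± 0.84 (SE; adjusted p = 0.280), and of 0.78 ± 0.76 (SE; adjusted p = 0.660) without Dicer LKO 3. Of the 6 glypican genes 4 were tested, edgeR called none, and the other 3 were negative. An unadjusted p under 0.05 was reached by 2 of the 4, and DESeq2 called Gpc1. Gpc4 had a log2 fold change of -0.66 ± 0.24 (SE; adjusted p = 0.175) and Gpc1 one of -1.07 ± 0.25 (SE; adjusted p = 0.0818).

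Cd24a, a small glycosylphosphatidylinositol-anchored glycoprotein found on hepatic progenitors, bile duct cells and many blood cells, rose in Dicer LKO livers (chr10:43578284-43584265, plus strand). It had 12.02, 14.3 and 18.9 CPM in Dicer LKO livers, against 1.80, 1.97 and 3.63 CPM in control livers, with no overlap and little spread. Its log2 fold change was 2.63 ± 0.31 (SE, n = 3 each; adjusted p = 0.0159 in edgeR's test). The call was lost, narrowly, without Dicer LKO 3 (adjusted p = 0.0514) or control 2 (0.0565), and the log2 fold change lay between 2.43 and 3.33, and the adjusted p between 5.68e-12 and 0.0565, over 13 alternative settings. In bulk liver RNA, a change in the number of cells of a type and a change in RNA per cell cannot be told apart. Markers of some of the cells that carry Cd24a were also higher. The 11 bile duct markers summed to 151, 184 and 288 CPM in Dicer LKO livers, against 39.5, 55.7 and 42.9 CPM in control livers. Osteopontin (Spp1) made up most of that sum, and 3 of the 9 tested markers were called higher, Spp1, Epcam and Cftr. Erythroid markers (10 genes) summed to 1147, 1798 and 2139 CPM in Dicer LKO livers, against 383, 285 and 342 CPM in control livers. Nearly all of that sum was globin RNA: 6 of the 10 were called higher, 4 of them globin genes, while 3 (Alas2, Klf1 and Epor) had negative log2 fold changes. The sums of 8 neutrophil markers were 45.0, 37.2 and 86.7 CPM in Dicer LKO livers and 14.7, 26.2 and 1.72 CPM in control livers. B cells carry Cd24a too, and their 6 markers summed to 3.26, 1.95 and 5.62 CPM in Dicer LKO livers, against 3.16, 3.89 and 3.76 CPM in control livers, with overlap. Markers of other liver cells were called higher too, against 0.741% of all tested genes. Of 13 stellate cell and fibroblast markers edgeR called 3, Pdgfra, Lum and Cygb, and 10 were positive. Of 12 macrophage and Kupffer cell markers it called Trem2 (at most 9 counts in a control) and Cx3cr1, and all 12 were positive. Of 9 endothelial markers it called Vwf, and 8 were positive. The part of any of these cell types in the Cd24a result was not tested. Of 4 listed binding partners of Cd24, 3 were tested, all were positive and edgeR called none, where 1 had an unadjusted p under 0.05 and was called by DESeq2, Anxa2. Anxa2, annexin A2, had the highest expression of them, with a log2 fold change of 1.18 ± 0.24 (SE; adjusted p = 0.0633), and Selplg, the selectin ligand, one of 0.86 ± 0.50 (SE; adjusted p = 0.374).

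Lpl encodes lipoprotein lipase, which frees fatty acids from circulating triglyceride and is made by fetal and neonatal but hardly by adult hepatocytes (chr8:68880491-68907448, plus strand). It had 17.3, 28.1 and 48.8 CPM in Dicer LKO livers, against 11.6, 15.7 and 68.5 CPM in control livers. Control 3 was the highest of all 6 libraries, and every Dicer LKO value was above the other 2 controls. With all libraries Lpl had a log2 fold change of -0.01 ± 0.78 (SE; adjusted p = 0.994), and without control 3 one of 1.23 ± 0.46 (SE; adjusted p = 0.279), the lowest of its 13 alternatives. Muscle and fat both make Lpl. In control 3 adipocyte markers (6 genes) also had their highest sum, 6.25 CPM, against 1.06, 0.0477 and 0 CPM in Dicer LKO livers and 0.180 and 0.0480 CPM in the other controls. The part of muscle and fat RNA in the Lpl value of that library was not tested.

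**Figure D2:**
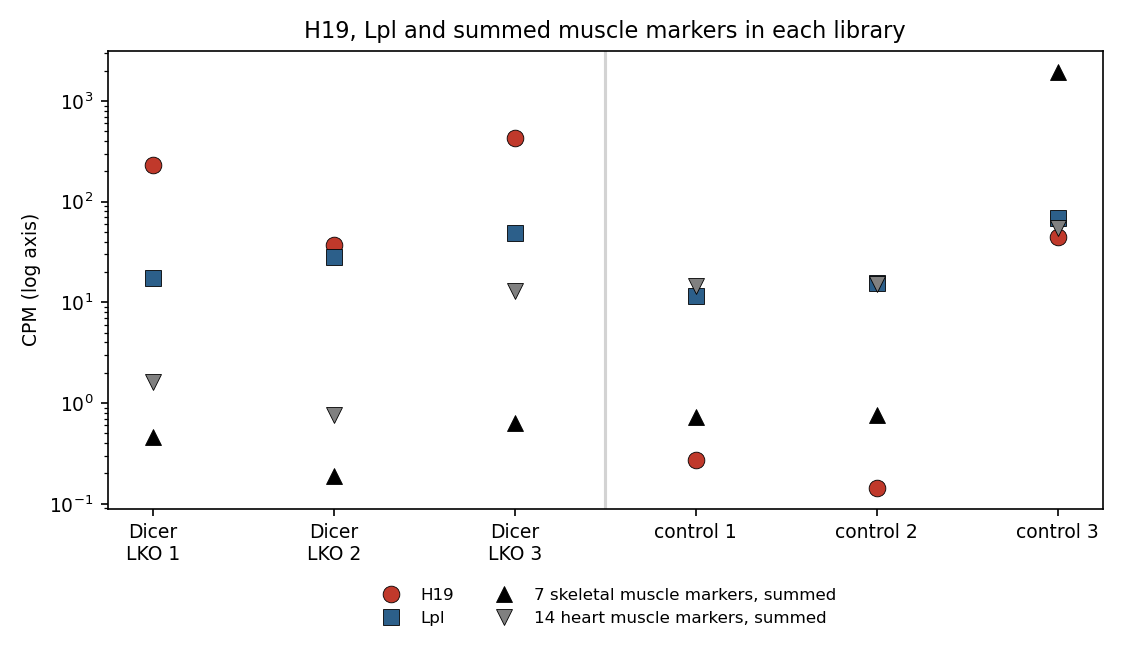
CPM on a log axis of H19, Lpl and the summed skeletal (7 genes) and heart (14 genes) muscle markers in each library, Dicer LKO left and control right. Control 3 has 1957 CPM of skeletal muscle markers, where no other library exceeds 0.768 CPM, and is the control with the highest H19 and Lpl.

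All 13 listed genes that act with lipoprotein lipase were tested. Of these, edgeR called 2 higher and none lower, against 0.741% and 0.552% of all tested genes. The log2 fold change was positive for 8 and negative for 5, with a median of 0.29. Cd36, a fatty acid transporter, had 123, 129 and 163 CPM in Dicer LKO livers, against 28.9, 21.2 and 43.9 CPM in control livers (log2 fold change 2.14 ± 0.27, SE; adjusted p = 0.0201). Angptl4, a secreted inhibitor of lipoprotein lipase, had 117, 185 and 140 CPM in Dicer LKO livers, against 50.03, 71.4 and 52.6 CPM in control livers (log2 fold change 1.34 ± 0.22, SE; adjusted p = 0.0398). Neither gene overlapped between the groups. Among the controls, Cd36 was highest in control 3 and Angptl4 in control 2.

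Scd2, the stearoyl-CoA desaturase of fetal and newborn liver and of brain, makes monounsaturated fatty acids (chr19:44293674-44306864, plus strand). It had 11.8, 11.2 and 13.6 CPM in Dicer LKO livers, against 7.30, 9.17 and 10.1 CPM in control livers. The groups did not overlap, but the difference was small, with a log2 fold change of 0.47 ± 0.17 (SE) and an adjusted p of 0.176. Whether the let-7 match printed above bears on this value was not tested. Scd1, the adult isozyme, had 2983, 629 and 4714 CPM in Dicer LKO livers, against 5957, 3277 and 4722 CPM in control livers (log2 fold change -0.75 ± 0.65, SE; adjusted p = 0.564). Of 9 desaturases and partners 7 were tested and edgeR called none, where 3 had an unadjusted p under 0.05 and DESeq2 called 2 (Fads1 and Srebf1). Scd2 was the only one of the 7 with a positive value. Fads1, the delta-5 desaturase, had a log2 fold change of -0.60 ± 0.18 (SE; adjusted p = 0.126).

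Sox4, a SoxC transcription factor of progenitor cells and of bile duct development, had 3.85, 2.29 and 5.62 CPM in Dicer LKO livers, against 1.31, 1.10 and 2.49 CPM in control livers (chr13:28948919-28953713, minus strand). Control 3 lay above Dicer LKO 2, and otherwise the groups were apart. Sox4 had a log2 fold change of 1.28 ± 0.42 (SE; adjusted p = 0.149), and of 1.72 ± 0.43 (SE; adjusted p = 0.154) without control 3. Its relatives did not share the direction, and edgeR called none of the 3 tested, where 2 had an unadjusted p under 0.05 and DESeq2 called Sox12. Sox12 had a log2 fold change of -1.46 ± 0.32 (SE; adjusted p = 0.0752), Sox9, a bile duct factor, one of -0.55 ± 0.39 (SE; adjusted p = 0.463), and Sox11 had too few counts to be tested.

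**Figure D3:**
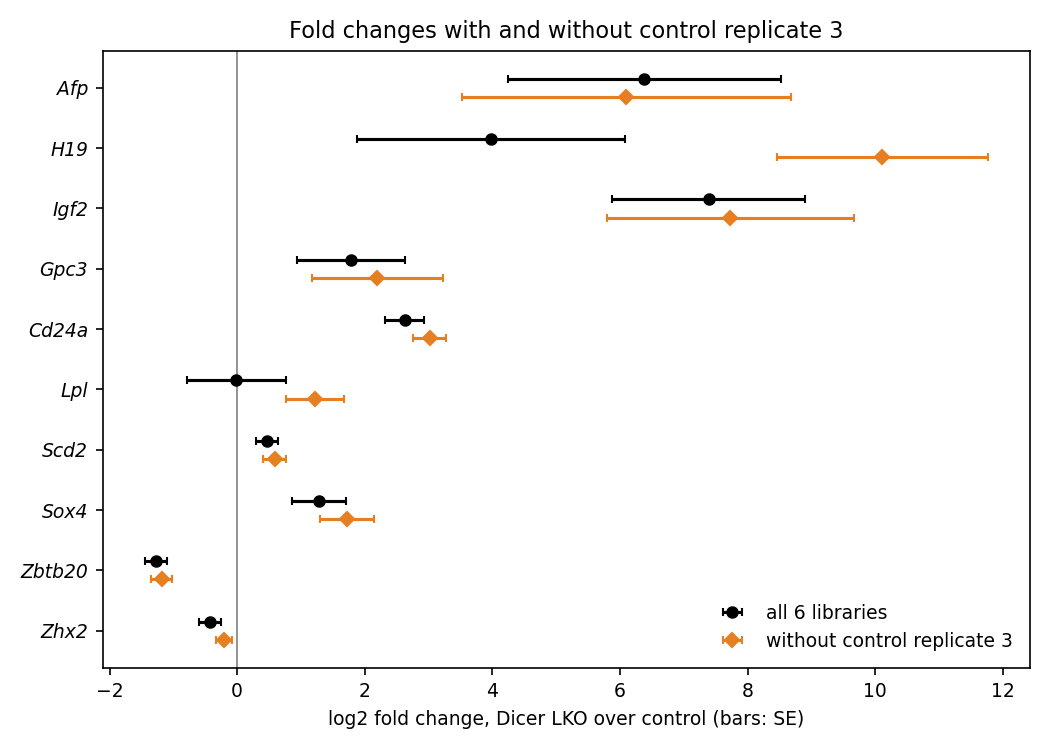
Log2 fold change, Dicer LKO over control, with its SE for each of the 10 genes, from all 6 libraries (black) and without control 3 (orange). H19 moves to 10.11 and Lpl to 1.23 without control 3, while Cd24a moves from 2.63 to 3.02 and Zbtb20 from -1.27 to -1.19.

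Zbtb20 fell in Dicer LKO livers (chr16:42875881-43642602, plus strand, 21 annotated transcripts). It had 243, 222 and 212 CPM in Dicer LKO livers, against 491, 550 and 595 CPM in control livers. On average Dicer LKO livers kept 41.4% of the control level, 226 ± 16.1 CPM in Dicer LKO livers against 545 ± 51.7 CPM in control livers (SD, n = 3 each), and every control exceeded every Dicer LKO library by a wide margin. Its log2 fold change was -1.27 ± 0.17 (SE; adjusted p = 0.0243 in edgeR's test), and it lay between -1.40 and -1.19 over 13 alternatives. The size held but the call did not: the adjusted p was between 0.0626 and 0.119 without any 1 of Dicer LKO 1, 2 or 3 or of controls 2 or 3, and 0.320 with heart muscle content as a term. The lowest adjusted p was DESeq2's, 2.33e-13. Without control 3, the library with skeletal muscle RNA, the value was -1.19 ± 0.17 (SE).

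The tables give 1 abundance-weighted transcript length per gene and library, which would shift with a change of isoforms. For Zbtb20 it was 10891, 11013 and 11524 bases in Dicer LKO livers, against 10595, 14498 and 12976 bases in control livers. The groups overlapped, with a difference of -1547 bases and an exact two-sided permutation p of 0.4, where 3 against 3 cannot go under 0.1. The difference was -2594 bases without control 1 and -643 bases without control 2. For H19 it was 2137, 2187 and 2183 bases in Dicer LKO livers, against 1274, 1108 and 2184 bases in control livers (exact p = 0.3), the lower pair resting on 6 and 3 counts. Over the 6 genes whose length varied between libraries, the exact p was 0.3 or more.

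Zhx2 had 17.3, 16.9 and 15.9 CPM in Dicer LKO livers, against 19.1, 20.1 and 28.0 CPM in control livers (chr15:57694665-57839832, plus strand). The groups did not overlap, and control 3 was set apart above the other controls. Zhx2 had a log2 fold change of -0.42 ± 0.17 (SE; adjusted p = 0.215) with all libraries and -0.21 ± 0.13 (SE; adjusted p = 0.471) without control 3, so the value moved most with that library. Zhx3, a partner of Zhx2, had 103, 95.3 and 103 CPM in Dicer LKO livers, against 127, 141 and 162 CPM in control livers (log2 fold change -0.52 ± 0.14, SE; adjusted p = 0.107). Zhx1 had a log2 fold change of 0.19 ± 0.12 (SE; adjusted p = 0.420). None of the 3 was called by edgeR, 2 had an unadjusted p under 0.05, and DESeq2 called Zhx3.

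Among 42 genes with a Zbtb symbol, 39 were tested and 1, Zbtb20, was called; 27 of the 39 were negative and the median was -0.10. Zbtb20 was also the lowest of the 39. Zbtb34, picked out here after its values were seen, had nearly the same log2 fold change, -1.27 ± 0.34 (SE; adjusted p = 0.1003), at 2.66, 3.15 and 2.19 CPM in Dicer LKO livers against 3.61, 6.72 and 9.06 CPM in control livers.

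**Figure D4:**
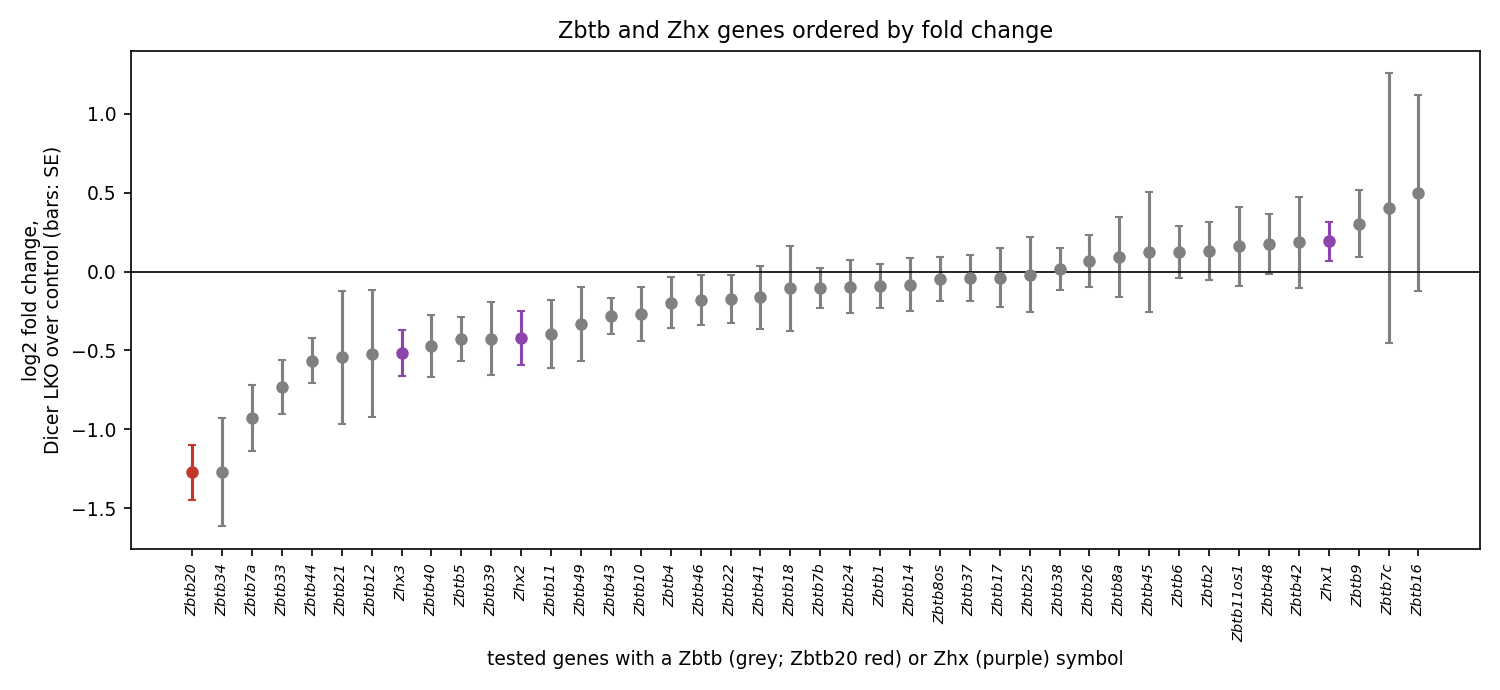
Log2 fold change, Dicer LKO over control, with its SE for the 39 tested genes with a Zbtb symbol (grey, Zbtb20 in red) and the 3 Zhx genes (purple), in rising order. Zbtb20 at -1.27 and Zbtb34 at -1.27 stand lowest, and Zbtb34 has the wider error.

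Genes reported to depend on Zbtb20 or Zhx2, beyond those above, numbered 9, and all were tested. None was called by edgeR. An unadjusted p under 0.05 was reached by 6, where 21.0% of all tested genes reached it. DESeq2, which called 6.77% of its 16222 tested genes, called the same 6 (Mlxipl, Srebf1, Fasn, Elovl3, Mup20 and Cyp2a4). Of the 9, 7 were negative and the median log2 fold change was -1.28, over a range of -3.52 to 2.37. The list was not split by the direction reported for each gene. Its signs and median cannot be read as loss or gain of repressor function. Mup20, a urinary protein gene, had 1996, 645 and 1385 CPM in Dicer LKO livers, against 2749, 2470 and 3163 CPM in control livers, with no overlap (log2 fold change -1.06 ± 0.39, SE; adjusted p = 0.183). Its counts are uncertain, because Mup genes are near-identical copies that share reads. Fbp1, a gluconeogenic enzyme, had a log2 fold change of 0.11 ± 0.30 (SE; adjusted p = 0.865).

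The list of 14 transcription factors reported to act on Afp held no gene called by edgeR, where 4 had an unadjusted p under 0.05 and DESeq2 called 2 (Foxa1 and Cebpb). Its median log2 fold change was -0.15, and 10 of the 14 were negative. Hnf4a had 503, 582 and 479 CPM in Dicer LKO livers, against 507, 473 and 486 CPM in control livers (log2 fold change 0.09 ± 0.18, SE; adjusted p = 0.802). Cebpa had a log2 fold change of -0.05 ± 0.17 (SE; adjusted p = 0.895). Cux1, picked out here for the chain named above, had 31.3, 35.5 and 29.8 CPM in Dicer LKO livers, against 31.5, 41.3 and 51.8 CPM in control livers (log2 fold change -0.37 ± 0.19, SE; adjusted p = 0.314).

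A further 22 fetal or oncofetal liver genes were looked up, of which 11 had enough reads to be tested. Of the 11, edgeR called Spp1 and Epcam higher and none lower. The log2 fold change was positive for 9 and negative for 2, with a median of 0.78. Spp1, the matrix protein osteopontin, had 127, 165 and 249 CPM in Dicer LKO livers, against 30.3, 40.9 and 24.0 CPM in control livers (log2 fold change 2.505 ± 0.30, SE; adjusted p = 0.0196). Epcam, an adhesion protein of progenitor and bile duct cells, had 5.73, 3.72 and 7.85 CPM in Dicer LKO livers, against 1.49, 0.865 and 0.701 CPM in control livers (log2 fold change 2.48 ± 0.38, SE; adjusted p = 0.0348). Both are also bile duct markers, whose sums are given above, and that cell type's part was not tested. Without control 3, which leaves 2 controls, neither was called.

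The fetal genes that failed the filter were mostly near 0 in both groups, with exceptions in Dicer LKO 3, chosen here after their values were seen. Dlk1, a hepatoblast surface protein, had 2, 0 and 48 counts in Dicer LKO livers, against 0, 1 and 0 in control livers. Igf2bp3 had 4, 0 and 20 counts in Dicer LKO livers and 0 in each control, where 0 allows up to 0.135, 0.144 and 0.191 CPM (3 counts, counting error only). Both thus followed the order of Afp across the Dicer LKO libraries, high in 3, low in 1 and at 0 in 2, where 0 allows up to 0.143 CPM. Igf2bp2, which holds the let-7 letters as well, ran the other way, with 2, 5 and 5 counts in Dicer LKO livers, against 9, 16 and 6 in control livers, and was too low to be tested. Peg3, named here for the same letters, had 11.6, 27.9 and 17.6 CPM in Dicer LKO livers, against 3.56, 7.54 and 12.8 CPM in control livers, with overlap (log2 fold change 1.27 ± 0.51, SE; adjusted p = 0.230). Lin28b was at 0 counts in all 6 libraries.

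On the TPM scale, which is per length, H19 was the highest of the 10 genes in Dicer LKO livers at 82.1 ± 70.4, followed by Igf2 at 23.1 ± 22.9, Afp at 15.2 ± 24.1 and Zbtb20 at 13.8 ± 1.38 TPM (SD, n = 3). Their ranges overlapped from each to the next, so that order is not fixed beyond the spread. Below them came Cd24a at 6.27, Lpl at 5.61, Zhx2 at 2.67, Scd2 at 1.56, Gpc3 at 0.643 and Sox4 at 0.580 TPM, where only Cd24a and Lpl, and Gpc3 and Sox4, overlapped as neighbours. In control livers Zbtb20 was highest at 32.2 ± 4.56 TPM, above Lpl at 6.10 ± 6.14 and H19 at 5.74 ± 9.69 TPM (SD, n = 3), the last 2 through control 3. The ranges of Lpl, H19 and Zhx2 overlapped from each to the next. Zhx2 followed at 3.91, Scd2 at 1.22, Cd24a at 1.12 and Sox4 at 0.263 TPM, with Scd2 and Cd24a overlapping. Igf2 at 0.227, Afp at 0.217 and Gpc3 at 0.207 TPM came last and overlapped with each other and with Sox4. Zbtb20 was thus above every fetal transcript in each control library, and in Dicer LKO 2 it was above all of them as well, while in Dicer LKO 1 and 3 H19 and Igf2 were above it, and in Dicer LKO 3 Afp as well.

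The genes whose pattern over the 6 libraries was most like that of Zbtb20, by Pearson's r of log2 CPM among 10770 genes, were Tmppe (r = 0.998), Proser1 (r = 0.996) and Ppp2r5e (r = 0.995). Proser1 had 2.71, 2.19 and 2.15 CPM in Dicer LKO livers, against 4.87, 5.67 and 6.31 CPM in control livers, and was called lower (log2 fold change -1.25 ± 0.21, SE; adjusted p = 0.0428). Ppp2r5e, a phosphatase subunit, was called lower too (-0.68 ± 0.12, SE; adjusted p = 0.0461), and Tmppe was not (-0.75 ± 0.19, SE; adjusted p = 0.0929). Most like Afp were Sesn1 (r = 0.988), H2-Eb1 (r = 0.985) and Serpinb6a (r = 0.977), none of which was called. H2-Eb1, a class II antigen-presenting molecule, had 38.7, 26.0 and 56.1 CPM in Dicer LKO livers, against 21.7, 28.1 and 21.0 CPM in control livers. The libraries fall into 2 groups for Zbtb20, so a high r there mostly restates the group difference.

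Cell division genes were looked at because fetal liver cells divide. Of 10, 8 were tested, all 8 were positive (median log2 fold change 1.17), and edgeR called none. Ccnb1 had 13, 22 and 21 counts in Dicer LKO livers against 5, 9 and 5 in control livers, and Cdk1 23, 39 and 32 against 7, 19 and 3. The place of these genes among the tested ones leaned on the Dicer LKO libraries, so the signs and the median are no support for a difference. An unadjusted p under 0.05 was reached by 4 of the 8, where 21.0% of all tested genes reached it. DESeq2 called Top2a. Pcna had a log2 fold change of 0.27 ± 0.19 (SE; adjusted p = 0.444), and Mki67 had 7.11, 15.3 and 5.90 CPM in Dicer LKO livers, against 3.07, 7.11 and 4.08 CPM in control livers. The highest value stood in Dicer LKO 2, which among the Dicer LKO libraries was lowest in Afp, H19 and Igf2.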

How the data were processed

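RNA from 6 whole-liver samples was sequenced. The authors deposited 1 table per library with RSEM's columns, per the file headers: an expected count (unnormalized), a TPM value and an abundance-weighted transcript length in bases, which falls in no standard unit. CASAVA, Bowtie and the human build hg19 are named per the submitters' processing notes, although the gene identifiers are mouse. Neither kit, strand setting nor mouse annotation is given in the sources used here, so genes that overlap another (22 listed overlapping genes, none above 77 counts in a library) are uncertain.

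Expected counts were rounded (96.05% to 96.48% were whole), filtered with filterByExpr, scaled by TMM and tested with edgeR 4.0.16's quasi-likelihood test (R 4.3.3), and the steps were tested on simulated data. CPM are TMM-scaled. Alternatives were RLE factors, library totals, no filter, DESeq2 1.42.0, limma 3.58.1 voom, the replicate number as a block, a heart muscle term and each library left out. Coordinates are GENCODE M21 (GRCm38). Lists came from general knowledge. The genes and lists were chosen with earlier results of these data known. Named in full were the 10 genes and Dicer1. From each other list the called members were named, or the 2 highest expressed where none was called. Exceptions were marker lists given only as sums, and pancreas markers, which were left out. The 3 genes most like Zbtb20 and most like Afp (average log2 CPM 1 or more) were named as well. Marker lists were summed per library.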

Additional observations from a re-analysis of the deposited data

How the results depend on the processing

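The number of genes called, 185 of 14314, was 103 with library totals (a scaling that moved the median of all genes by -0.13), 422 of 23659 without the filter on low counts, 1098 of 16222 by DESeq2, 92 by limma voom and 7 with the heart muscle term, and 23 to 389 with 1 library left out (14653 to 14809 tested). Of the 10 genes, 2 were called with all libraries, 4 by DESeq2 (Igf2 and Afp in addition), 1 with the heart muscle term (Cd24a), and 0 to 2 with 1 library left out (0 without Dicer LKO 3 and 0 without control 2). Of the other fetal genes, 2 were called, 3 by DESeq2, 3 with the replicate block, 1 by limma voom, 1 with the heart muscle term and 0 to 2 with 1 library left out. Dicer1 at -0.99 passed the threshold at -0.98 without the filter at -0.99 by DESeq2 and at -1.15 without control 1, and ranged from -1.15 to -0.79 with 1 library left out. Lpl, near 0 with all libraries, was positive without the filter (0.0102), by limma voom (0.35), with the block (0.31), with the heart muscle term (1.99), and without Dicer LKO 1 (0.28), Dicer LKO 2 (0.10) or control 3 (1.23), with -0.48 to 1.23 over the fits that leave 1 library out; the cause was not tested. The other 9 genes kept their direction in all 13 alternatives each. Same-numbered libraries showed no clear shared deviation (correlations of 0.11, 0.07 and -0.10, and 1 of 3 best with its own number). With 3 libraries a group these correlations cannot decide whether the numbers pair the samples. The replicate block called 245 genes, 2 of the 10 among them. The limits are 3 libraries a group, skeletal muscle RNA in control 3, uneven heart muscle RNA across both groups, and counts of 3 to 16 for Afp in controls.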
